A study of Homo sapiens with 18 samples.

Results

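The peak lists described here are the 2 DRIP lists and the 2 RNase H DRIP lists of HCT116 cells after 5 min of camptothecin (CPT), and they were chosen by their sample labels. They are 4 of the 18 samples of the series, 12 of which have a peak list, and hold 144187 of its 430858 peaks. HCT116 is an established human epithelial line from a colorectal carcinoma, and all 4 libraries come from cells that received 10 μM CPT, a poison of topoisomerase I. Cells were lysed after a short recovery without the drug, genomic DNA was cut with Bsr GI, Eco RI, Hind III, Ssp I and Xba I, and one portion of the cut DNA was digested with RNase H before immunoprecipitation with the antibody S9.6. The 2 replicates of each kind are biological, and the DRIP and RNase H libraries of one replicate number come from the same cut DNA. The lists hold peaks over input, so the identity of the cells could not be checked against marker genes.

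A DNA-RNA hybrid forms when a transcript pairs with the DNA strand it was copied from, and together with the displaced DNA strand it makes an R loop. Topoisomerase I removes the supercoils that arise around a transcribing RNA polymerase, and CPT holds the enzyme on DNA as a cleavage complex. S9.6 binds DNA-RNA hybrids, and RNase H degrades the RNA strand of a hybrid, so DNA digested with RNase H before the precipitation serves as the control for the specificity of a DRIP signal. A peak in an RNase H list means that the digested sample still exceeded its input there at the calling threshold. It does not measure how much signal the digestion removed, because the fold enrichment of a peak ranks peaks within its own list only and was not compared between lists. In a bulk culture, fewer cells with a hybrid and fewer hybrids per cell cannot be told apart.

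The sequences in this paragraph are shown because peaks of different lists ended on the same base, at a cut site of the enzyme cocktail. All positions are on the plus strand of GRCh37 (hg19), each stretch is 120 bases centred on the shared end, and capitals mark the recognition sites of the 5 enzymes. PPP1CC had peaks in both DRIP lists that ended at base 111181049 (chr12:111180990-111181109) and none in the RNase H lists. RPSA had a peak starting at base 39445857 in all 4 lists (chr3:39445797-39445916). EIF5A also had one starting at base 7210493 in all 4 lists (chr17:7210433-7210552).
PPP1CC: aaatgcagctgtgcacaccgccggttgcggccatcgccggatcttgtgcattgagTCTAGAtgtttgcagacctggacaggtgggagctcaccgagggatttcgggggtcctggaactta
RPSA: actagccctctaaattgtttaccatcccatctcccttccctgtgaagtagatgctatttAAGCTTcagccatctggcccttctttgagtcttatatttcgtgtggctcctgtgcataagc
EIF5A: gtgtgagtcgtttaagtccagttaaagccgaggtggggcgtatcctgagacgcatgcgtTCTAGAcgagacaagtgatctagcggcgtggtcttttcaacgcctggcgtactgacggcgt

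The next sequence comes from a region with a peak of both RNase H lists and of neither DRIP list, in an intron of HHAT, and is shown for its imperfect tandem repeat with a period of 14 bases. It is 150 bases of the plus strand of GRCh37 around the summit of the RNase H peak of replicate 2 (chr1:210827231-210827380), and capitals mark bases identical to the base 1 repeat period earlier.
HHAT: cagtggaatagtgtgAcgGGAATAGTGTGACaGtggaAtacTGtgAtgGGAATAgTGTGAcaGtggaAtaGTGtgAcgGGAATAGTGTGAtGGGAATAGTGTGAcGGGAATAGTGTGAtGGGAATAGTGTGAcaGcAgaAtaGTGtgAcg

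There were 33852 DRIP peaks in replicate 1 and 56543 in replicate 2. RNase H peaks numbered 3439 and 50353. Both DRIP lists were thus longer than the RNase H list of their own replicate, but the RNase H list of replicate 2 was longer than the DRIP list of replicate 1. The mean difference was 18301.5 peaks, with 30413 in replicate 1 and 6190 in replicate 2. A two-sided exact permutation test over libraries gave p = 0.667, and 2 libraries against 2 cannot go below 0.33. DRIP peaks covered 24.95 and 47.0 Mb of the genome and RNase H peaks 1.62 and 30.3 Mb. The median DRIP peak was 543 and 464 bp wide, the median RNase H peak 381 and 385 bp, so the widths did not overlap between the kinds (exact p = 0.33, the smallest possible). Over the 8 measures compared in this way, no p was below 0.762 after Benjamini-Hochberg adjustment. The lists hold no read counts, and read depth was not used here to judge a missing peak. The short RNase H list of replicate 1 weighs on each result that uses it.

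The comparison asks which of the DRIP signals after 5 min of CPT still had a peak after RNase H digestion. Overlapping peaks of the 2 DRIP replicates, with a minimum of 1 bp in common, formed 12637 shared regions. Of these, 4869 (38.5%) met no RNase H peak and 7768 (61.5%) met one of at least 1 replicate. The RNase H peak came from replicate 2 alone in 7088 regions and from replicate 1 alone in 64, and 616 regions (4.87%) met a peak of both. The share met therefore rests on the RNase H list of replicate 2. With both RNase H lists reduced to their 3439 strongest peaks, 17.3% of the shared regions were met.

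Compared replicate by replicate, the shares were far apart. In replicate 1, 943 DRIP peaks (2.79%, 95% Wilson interval 2.62 to 2.97) overlapped the RNase H list of that replicate, and in replicate 2, 18659 did (33.0%, 32.6 to 33.4). These intervals cover counting error only, and neighbouring peaks are not independent replicates. Seen from the other side, 1041 RNase H peaks of replicate 1 (30.3%) and 21787 of replicate 2 (43.3%) met a DRIP peak of their own replicate. The RNase H list of replicate 2 met about as large a share of the DRIP peaks of replicate 1 (33.4%) as of its own replicate, whereas that of replicate 1 met 846 of the 56543 DRIP peaks of replicate 2.

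DRIP peaks of high fold enrichment were met far more often than the rest, in both replicates. In the lowest decile of fold enrichment 1.15% of the DRIP peaks of replicate 1 met an RNase H peak, and in the highest decile 11.2%. In replicate 2 the shares were 13.7% and 80.4%. In that replicate the share was higher in each decile than in the one before, and the ninth decile (53.9%) and the tenth stood well above the others. In the highest decile of replicate 2, 4543 of 5650 peaks were met.

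**Figure D1:**
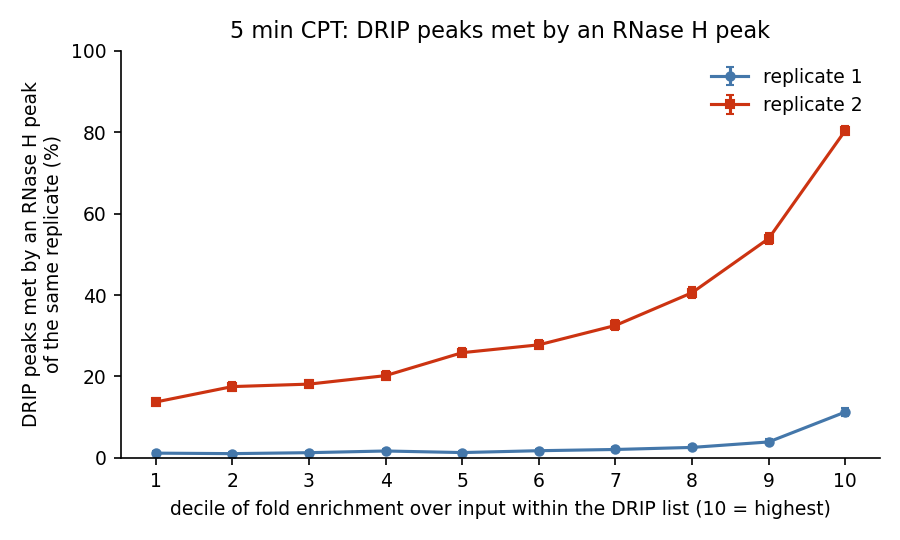
Share of 5 min DRIP peaks that overlapped the RNase H list of their replicate (y axis, percent) by decile of fold enrichment within the DRIP list (x axis). Points are shares with 95% Wilson intervals, blue for replicate 1 and red for replicate 2. The share reached 11.2% in the top decile of replicate 1 and 80.4% in that of replicate 2.

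Shared regions followed the same order. In regions without an RNase H peak, the median percentile of fold enrichment was 52.1 in DRIP replicate 1 and 55.1 in replicate 2. In regions with one it was 70.3 and 87.1. Regions met by both RNase H lists reached medians of 92.5 and 94.1. The mean difference between met and unmet regions was 25.1 percentile points, and within width bins it was 13.7.

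Regions met by an RNase H peak were the wider ones. Shared regions without an RNase H peak had a median width of 773 bp (quartiles 565 and 1178 bp). Those with one had a median of 1676 bp (882 and 3254 bp), a ratio of 2.17. Regions met by both RNase H lists had a median of 2467 bp and those met by replicate 2 alone 1645.5 bp. Among DRIP peaks compared with the RNase H list of their own replicate, the medians were 891 bp against 539 bp in replicate 1 and 737 bp against 410 bp in replicate 2, so the direction held in each. A wider region offers more room for an overlap, so width and being met are not independent measures. When coverage of at least 50% of a region by RNase H peaks was required, 36.4% of the regions counted as met and the ratio of widths was 1.42.

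**Figure D2:**
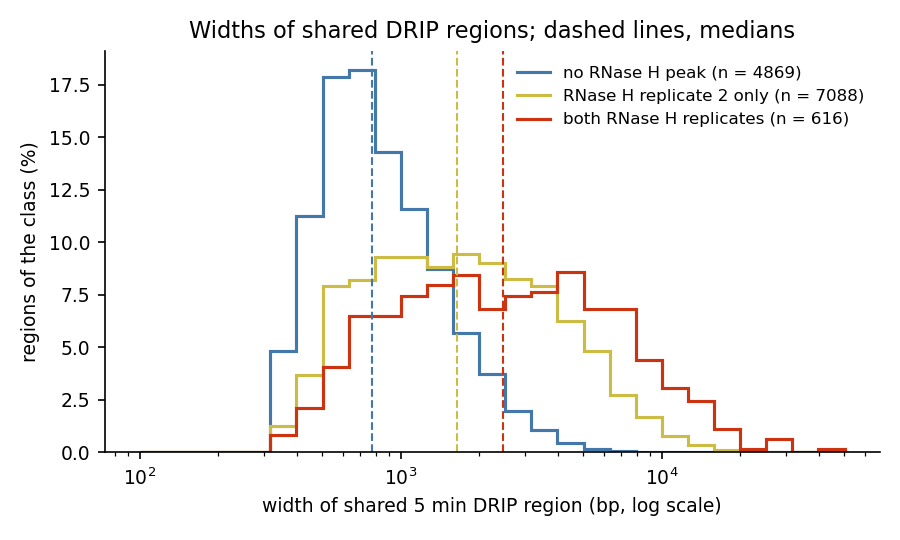
Distribution of the widths of shared 5 min DRIP regions (x axis, bp on a log scale; y axis, percent of the regions of a class) with no RNase H peak (blue), an RNase H peak of replicate 2 only (yellow) or of both replicates (red). Dashed lines mark the medians of 773, 1645.5 and 2467 bp. The 64 regions met by replicate 1 only are not drawn.

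Of the regions under 500 bp, 31.5% met a peak of RNase H replicate 2, and of those of 5000 bp or more, 98.6% did. For replicate 1 the shares were 1.94% and 17.2%. Both series rose through the bins between. Among the 921 regions of 5000 bp or more, 13 met no RNase H peak. The 5 widest of these, listed after their widths were seen, overlapped TMEM94 (8317 bp), IRF7 and CDHR5 (8099 bp), BCAR1 (7859 bp), STK11 (7775 bp) and TSSC4 and TRPM5 (7033 bp). STK11 encodes a tumour suppressor kinase that activates AMPK, IRF7 a transcription factor of the interferon response, and BCAR1 an adaptor of integrin signalling. In DRIP replicate 1 their percentiles of fold enrichment ranged widely, with 37.7 for TMEM94, 39.5 for STK11, 53.6 for BCAR1, 89.1 for IRF7 and CDHR5 and 94.9 for TSSC4 and TRPM5. In replicate 2 all 5 lay between 84.6 and 98.8.

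**Figure D3:**
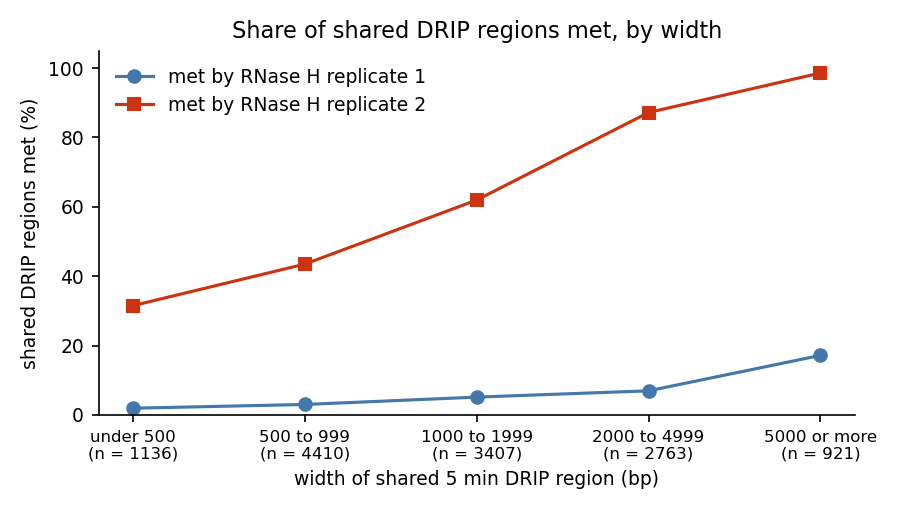
Share of shared 5 min DRIP regions met by an RNase H peak (y axis, percent) in 5 bins of region width (x axis, bp, with the number of regions), for RNase H replicate 1 (blue) and replicate 2 (red). For replicate 2 the share rose from 31.5% to 98.6% over the bins and for replicate 1 from 1.94% to 17.2%.

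Gene parts were read at the midpoint of each region, with the promoter as 5′UTR and 10 kb upstream and the terminator as 3′UTR and 10 kb downstream of protein-coding genes. Promoters held 2331 regions with an RNase H peak (30.0%, 95% Wilson interval 29.0 to 31.04) and 982 without (20.2%, 19.1 to 21.3). Terminators held 16.1% and 12.2%, and exons 3.57% and 2.32%. The remaining parts went the other way. Introns held 37.6% of the regions with an RNase H peak and 42.1% of those without, and 12.8% and 23.2% lay outside protein-coding genes. Counted by part, 70.4% of promoter regions and 46.9% of regions outside genes were met.

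These differences were not alike in the 2 replicates. Among DRIP peaks of replicate 2, promoters held 26.9% of the met and 19.6% of the unmet peaks. In replicate 1 the values were 18.6% and 17.6%, a difference of 0.93 percentage points. Regions met by both RNase H lists had 21.8% at promoters (18.7 to 25.2) and 20.6% outside genes, close to the regions met by none. Requiring both lists thus turned the promoter difference from 9.84 to -4.69 percentage points against all other regions. Terminators held 12.2% of the regions met by none, 15.9% of those met by replicate 2 alone and 18.99% of those met by both, but 5 of the 64 regions met by replicate 1 alone (7.81%). Within width bins the terminator shares did not keep 1 direction, with 12.5% of the met and 14.5% of the unmet regions of at least 1000 and under 2000 bp, and 19.6% and 13.5% of those of at least 2000 and under 5000 bp. Region width moved with the parts, since promoter regions had a median of 1581 bp and regions outside genes 840 bp. Averaged within width bins, the promoter difference was 3.31 percentage points. In regions of at least 500 and under 1000 bp promoters held 22.5% of the met and 17.7% of the unmet regions, and in those of at least 2000 and under 5000 bp 35.5% and 33.8%.

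**Figure D4:**
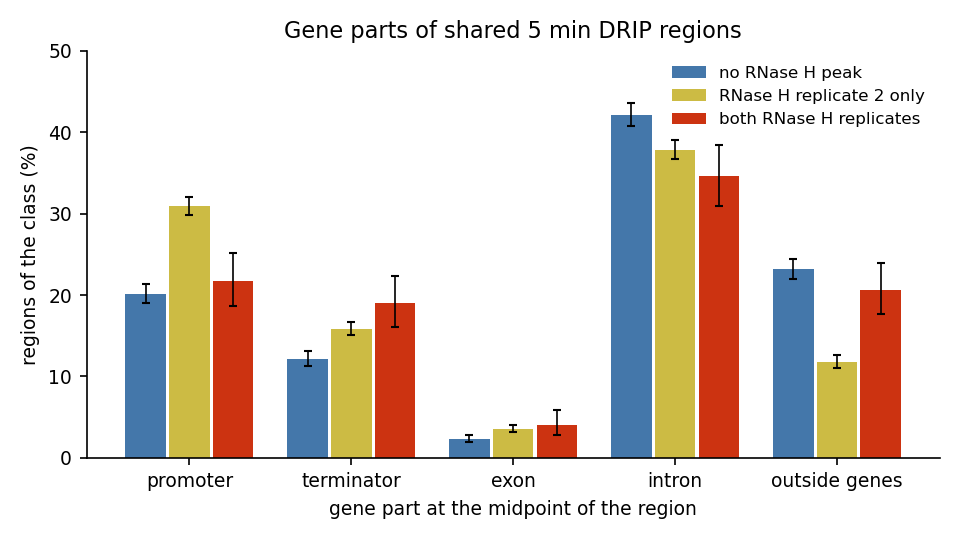
Gene part at the midpoint of shared 5 min DRIP regions (x axis) as percent of the regions of a class (y axis), for regions with no RNase H peak (blue), a peak of RNase H replicate 2 only (yellow) and of both replicates (red). Bars are shares with 95% Wilson intervals. Promoters held 20.2%, 30.9% and 21.8% of the 3 classes and terminators 12.2%, 15.9% and 18.99%.

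In each gene part the met regions were the wider ones, with a ratio of medians of 2.43 at promoters, 2.73 at terminators, 2.60 in exons, 2.00 in introns and 1.35 outside genes. Regions within 1000 bp of the start of a protein-coding gene made up 14.1% of the met and 9.55% of the unmet regions. Noncoding genes were also counted by overlap with a region, and met regions covered 19.3 Mb against 4.82 Mb for unmet ones, which leaves them more room for a gene. A small nucleolar RNA gene lay in 73 of the met regions (0.94%) and 7 of the unmet ones (0.144%), and a microRNA gene in 74 (0.953%) and 6 (0.123%). Long noncoding RNA genes lay in 19.1% of the met and 16.5% of the unmet regions.

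Met regions were richer in G and C. The median GC content was 49.9% in regions with an RNase H peak and 45.0% in those without, and 51.6% in regions met by both lists. Read in 300 bp around the summit of the strongest peak of DRIP replicate 2 instead, the difference was 4.67 percentage points against 4.84 over whole regions. In DRIP peaks compared with their own replicate, the difference was 4.33 points in replicate 1 and 3.23 in replicate 2. CpG dinucleotides were at 0.329 of the number the base composition gives in met regions and at 0.246 in unmet ones. In regions of at least 2000 and under 5000 bp the GC contents were 52.0% and 52.2%, so at that width the met regions were not the richer ones. An excess of G over C on the coding strand, which is characteristic of R loop forming sequences, was found in 65.1% of the 5611 met regions within genes of 1 strand and in 61.3% of 3067 unmet ones.

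Most of the peak ends that a DRIP and an RNase H list had in common lay at cut sites of the enzyme cocktail. An edge was counted as lying at a cut site when it fell within 5 bp of one. Of the edges of all DRIP peaks 33.9% and 31.1% lay at a cut site in replicates 1 and 2, and of the edges of RNase H peaks 23.5% and 21.7% (exact p = 0.33, the smallest possible). Among DRIP peaks that overlapped an RNase H peak of their replicate, 379 of 943 (40.2%) in replicate 1 and 7712 of 18659 (41.3%) in replicate 2 shared at least 1 edge with it to the base. Of these shared edges 94.0% and 96.9% lay at a cut site. The other edges of met peaks did so in 24.9% and 17.1%. This measure was added after the data were seen. Counted per kb of region, sites were sparser in met regions, with 0.623 against 1.10 in unmet ones. This count takes in sites at the ends of the region itself, and was not repeated without them or within width bins. At least 1 end lay at a site in 74.2% of met and 71.1% of unmet regions. Such ends weigh more in the narrower unmet regions (median 773 bp against 1676 bp). The fragment around the midpoint had a median length of 3053 bp against 2496 bp. Within width bins this difference did not keep 1 direction. Fragments of met and unmet regions had medians of 1977.5 and 2205 bp under 500 bp of width. In the next bin the medians were 2439 and 2479.5 bp. Met regions of at least 1000 and under 2000 bp had the longer fragments, with 2566.5 against 2499 bp. So did those of at least 2000 and under 5000 bp, with 3350.5 against 3245 bp. At 5000 bp or more the medians were 5445 and 6854 bp, the latter over only 13 unmet regions.

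Where a DRIP peak met an RNase H peak, their summits were often close. The median distance to the nearest RNase H summit was 194 bp in replicate 1 and 151 bp in replicate 2, and 50.6% and 57.2% of the met peaks had one within 200 bp. A distance over 1000 bp was found for 10.1% and 7.89%. RNase H peaks covered a median of 47.9% of the met DRIP peak in replicate 1 and 67.6% in replicate 2, and 121 (12.8%) and 4193 (22.5%) peaks were covered in full. The strongest RNase H peak was the narrower of the pair in 80.4% and 63.9% of cases. Over the genome, the share of DRIP peaks met was highest on chromosome 19 in replicate 2 (50.1%, 48.6 to 51.6, of 4245 peaks) and lowest on chromosome 18 (25.7%). In replicate 1 chromosomes 21 (5.76% of 347 peaks) and 19 (5.71% of 2331) were the highest and chromosome 4 (1.57%) the lowest.

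The 8 unmet regions that ranked highest in both DRIP lists and overlapped a protein-coding gene lay in 7 gene loci. The values given are fold enrichments of the strongest peak over input, as deposited. PPP1CC, the gamma catalytic subunit of protein phosphatase 1, had 8.50 in replicate 1 and 10.7 in replicate 2 over a region of 1622 bp (chr12:111179428-111181049), which overlapped its 5′UTR. The nearest RNase H peak in the plotted window, of replicate 2, began 5432 bp from the centre of that region. At the end of HDAC1, a histone deacetylase, and the neighbouring MARCKSL1, the folds were 8.26 and 10.4 (chr1:32798981-32801266), with 2 peaks in replicate 1 and 1 in replicate 2. REPS1, an adaptor of endocytosis, had 9.22 and 9.08 over its 5′UTR and promoter (chr6:139308504-139310420). These 3 loci had the DRIP peak in both untreated (NT) libraries and, after 60 min of CPT, in both DRIP libraries as well.

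TBC1D19 had 10.99 and 10.1 in a region of 3226 bp without an exon. MYO3B, a class III myosin, held 2 of the 8 regions, with 7.91 and 11.2 in one (chr2:171486815-171487997) and 7.24 and 10.5 in the other (chr2:171483317-171485176), both in introns. PACRGL had 7.62 and 9.28 in an intron (chr4:20716290-20717238) and was the only one of the 8 without a peak in either NT list. AKR1C1, an aldo-keto reductase that reduces progesterone, had 10.0 and 9.65 over its 3′UTR (chr10:5023350-5024221). Its sequence is close to that of other AKR1C genes, so reads could have been shared among them and the value is uncertain. All 8 regions lacked an RNase H peak in both NT lists, and 7 had one in RNase H replicate 2 after 60 min, AKR1C1 being the exception. Over all 4869 unmet regions, 4.48% met an RNase H peak of either NT list and 51.7% one of either 60 min list. None of the 8 regions named here had a peak in RNase H replicate 1 at any time. Those lists were short, with 473 peaks in NT, 3439 at 5 min and 5392 at 60 min.

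**Figure D5:**
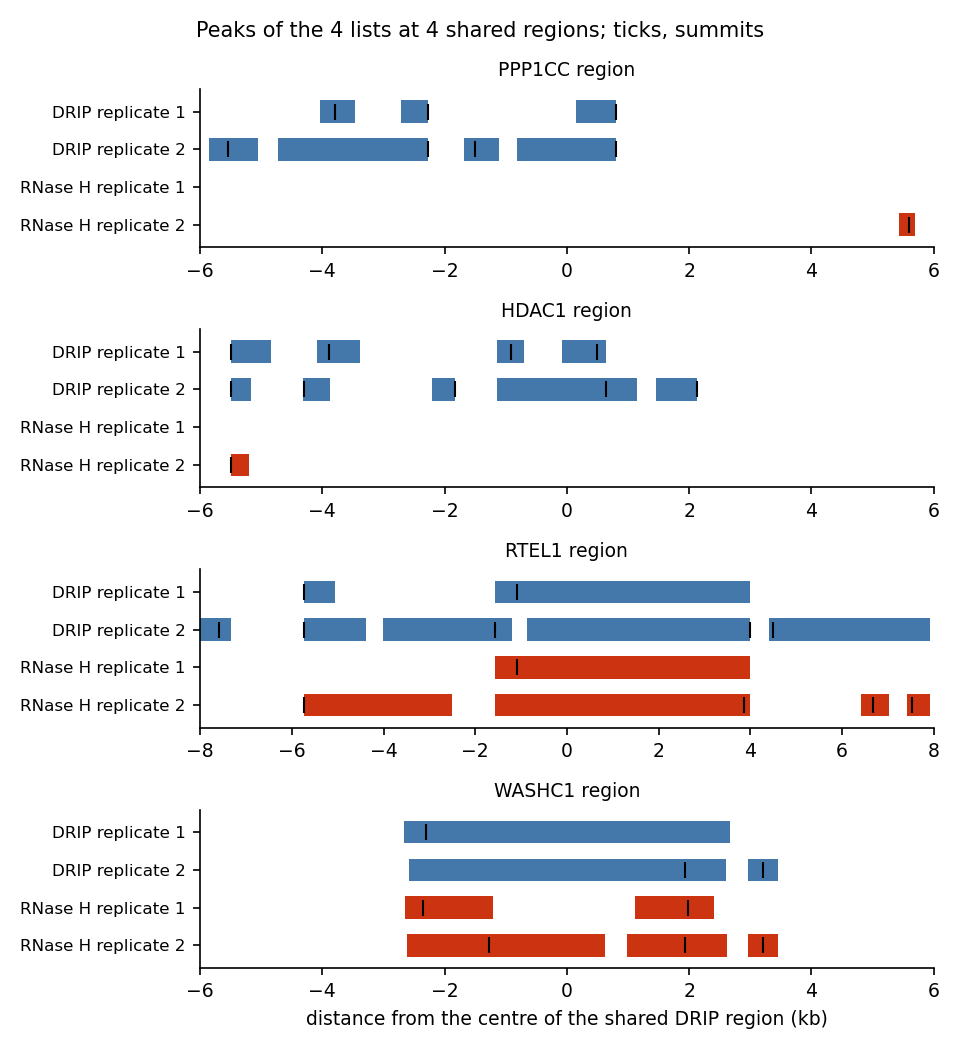
Peaks of the 4 lists of 5 min CPT (rows; blue, DRIP; red, RNase H) by distance from the centre of the shared DRIP region (x axis, kb), with black ticks at summits. At PPP1CC and HDAC1 no RNase H peak met the central region, and at RTEL1 and WASHC1 peaks of both RNase H lists did. At RTEL1 the long peak of both RNase H lists has the edges of the DRIP peak of replicate 1.

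The next 8 regions, met by both RNase H lists, ranked highest over all 4 lists, and their folds are given for the DRIP lists first. Folds rank peaks within 1 list only, so DRIP and RNase H values printed side by side do not show what the digestion removed. The strongest peaks of the lists in a region can also be different peaks. RTEL1, a DNA helicase of telomere maintenance, lay with TNFRSF6B and ARFRP1 in a region of 8003 bp (chr20:62322009-62330011). The strongest peak of each list had 17.6 and 21.1 in the DRIP lists and 57.0 and 47.8 in the RNase H lists. That of DRIP replicate 2 (62322009-62324819) was another peak than that of DRIP replicate 1. The peak of DRIP replicate 1 and those of both RNase H lists spanned the same 5562 bases. WASHC1, a subunit of the actin-nucleating WASH complex, had 25.8 and 50.2 in the DRIP lists and 19.04 and 33.7 in the RNase H lists (chr9:10014-15339). It lies at the chromosome end and has near-identical copies at other ends, so its value is uncertain.

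ACTN4, an actin-crosslinking alpha-actinin, had DRIP folds of 9.64 and 24.3 and RNase H folds of 14.2 and 14.2 (chr19:39137763-39141201). EIF5A, a translation factor, shared its region with GPS2, a subunit of a corepressor complex, with 29.4 and 35.1 against 9.75 and 50.6 (chr17:7210493-7218346). RPSA, a protein of the small ribosomal subunit, had 13.6 and 24.1 against 12.1 and 34.5 (chr3:39445857-39451756). Ribosomal protein genes have many processed copies, which makes the counts of reads there uncertain. CPNE7, a copine, had 9.54 and 12.3 against 9.55 and 13.3 (chr16:89640993-89646294), and TNFSF9, the ligand of the T cell receptor 4-1BB, 8.66 and 9.50 against 12.2 and 26.7 (chr19:6524302-6532646). The narrowest was in an intron of CNTN5, a neural contactin, where a region of 427 bp had 10.3 and 9.51 against 26.3 and 22.7 (chr11:99690828-99691254), and peaks of all 4 lists ended on base 99691254. All 8 regions also had DRIP peaks in both NT lists and in both 60 min lists, and an RNase H peak in replicate 2 of NT and of 60 min. Over all 616 regions met by both RNase H lists, 69.0% had DRIP peaks in both NT lists and 84.6% in both 60 min lists. An RNase H peak of either NT list met 61.2% of them, and one of either 60 min list 95.3%.

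Peaks of both RNase H lists overlapped in 1009 regions. Of these, 585 met peaks of both DRIP lists, 195 a peak of 1 and 229 (22.7%) of neither. Regions without a DRIP peak were narrow, with a median of 591 bp against 1998 bp for those with both, and 92 of them (40.2%) lay outside protein-coding genes and 100 (43.7%) in introns. A DRIP peak of NT or 60 min CPT met 112 of the 229 (48.9%). Tandem repeats were measured as the highest share of bases identical to the base a fixed 2 to 60 bases later in 300 bp around the summit. A share of at least 60% was found in 22 of the 229 regions (9.61%), in 26 of the 585 met by both DRIP lists (4.44%) and in 64 of the 12637 shared DRIP regions (0.506%). A strand with at least 70% purines was found in 18 (7.86%), 19 (3.25%) and 0.301%. Both measures and their thresholds were chosen after the data were seen.

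In the RNase H lists themselves, repeats were found around 6.05% of the peaks of replicate 1 with a DRIP peak and 5.50% of those without. In replicate 2 they were found around 0.454% and 1.01%. Repeats were thus several times more frequent in the shorter list, with or without a DRIP peak. Reads over tandem repeats align to several places, and the part of this in the repeat shares was not tested.

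The 5 regions without a DRIP peak that ranked highest in the RNase H lists included that of HHAT, whose sequence is printed above. The region near COL6A1, a collagen VI chain, had RNase H folds of 10.99 and 8.27, a repeat identity of 70.5% and 83.0% purines on the richer strand. HHAT, the acyltransferase of hedgehog proteins, had 12.1 and 6.53 with an identity of 55.9%, just under the threshold (chr1:210826933-210827694). TCF20, a transcriptional coregulator, had 10.1 and 6.51 with an identity of 76.2%. SHC2, a signalling adaptor, had 11.5 and 6.48 in an intron (chr19:426464-427538), with an identity of 33.5%, close to the median of 33.8% over the 229 regions. The fifth, 8075 bp from PTPRN2, had 6.82 and 12.5 and 33.5% identity (chr7:158388591-158389107).

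Genes were next counted by the shared regions within the gene and 10 kb on either side. Of 20176 protein-coding genes 8542 had such a region, and 6620 of these (77.5%) had at least 1 met by an RNase H peak, 754 (8.83%) 1 met by both RNase H lists. Of 3619 long noncoding RNA genes with a region 2584 (71.4%) had a met one. Neighbouring genes can share a region, so genes are not independent. The lists below were chosen with earlier results of these data known, and they are described by their counts with no test. DRIP and RNase H folds given for a locus rank peaks within their own lists and are again not to be compared with each other.

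Cytosolic ribosomal protein genes were nearly all among the genes with a met region. Of 89 genes 83 had a shared region, and 81 of these (97.6%) a met one, with 17 (20.5%) met by both lists. RPS9 had DRIP folds of 33.7 and 36.3 and RNase H folds of 3.87 and 19.8 (chr19:54703665-54713880). RPS2, with its neighbour RPL3L, had 24.4 and 52.5 against 4.26 and 18.5 (chr16:2009125-2016695). RPL13A had 24.4 and 35.1 in the DRIP lists and 13.4 in RNase H replicate 2 alone (chr19:49989437-49995448). RPS4X, on the X chromosome, had an unmet region only. The regions of the ribosomal protein genes were also wide and strong, with a median width of 3568 bp against 1266 bp over all protein-coding genes, and median percentiles of 92.4 and 98.1 against 60.0 and 79.7.

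Hosts of small nucleolar RNAs were similar, with 36 of 37 genes with a region met (97.3%) and 8 by both lists. EEF2, the elongation factor that moves the ribosome along the mRNA, had DRIP folds of 15.9 and 47.2 and 11.4 in RNase H replicate 2 (chr19:3978242-3985616). Of 66 replication-dependent histone genes 42 had a region, all 42 had a met one and 0 one met by both lists, but these genes are clustered and shared 17 regions. Of 20 loci that are widely used in R loop assays 14 had a region and 13 (92.9%) a met one, 6 of them by both lists. ACTB had 27.0 and 34.8 in the DRIP lists and 10.8 in RNase H replicate 2 (chr7:5565100-5574092). The noncoding RNA MALAT1 had 15.8 and 24.5 against 7.12 and 31.4 (chr11:65266457-65268426), and NEAT1 15.8 and 36.2 against 9.78 and 42.8 (chr11:65188614-65193936).

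Immediate early genes, which transcribe within minutes of a stimulus, had a met region in 25 of 29 genes with a region (86.2%). EGR1 had DRIP folds of 12.01 and 21.2 and RNase H folds of 6.78 and 30.6 (chr5:137798757-137804173), and PPP1R15A 15.9 and 18.3 against 7.90 and 13.2 (chr19:49372430-49380169). SGK1, DUSP2, EGR2 and DUSP1 had unmet regions only, and that of SGK1, a serum-induced kinase, reached 5.61 and 8.53 over 3612 bp (chr6:134495426-134499037). Among heat shock protein genes 14 of 18 had a met region (77.8%). HSP90AB1 had 15.1 and 24.7 against 5.84 and 18.9 (chr6:44215575-44224205), whereas the promoter region of the divergent pair HSPD1 and HSPE1, which encode mitochondrial chaperonins, spanned 4819 bp with 4.20 and 11.5 in the DRIP lists and met none. Genes of structured noncoding RNAs had a met region in 7 of 9 cases (77.8%).

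Long genes and zinc finger genes lay below the share over all genes for a peak of at least 1 RNase H list. Of 1503 protein-coding genes longer than 200 kb 650 had a region, and 382 of these (58.8%) a met one. Their regions had a median width of 876 bp and median percentiles of 65.7 and 63.8. Of 259 zinc finger genes on chromosome 19, 78 had a region and 49 (62.8%) a met one, while 13 (16.7%) had one met by both RNase H lists, above the 8.83% over all protein-coding genes. The protein-coding genes with most unmet regions were ANKRD11 and FBXO31, with 7 of 11 each, followed by SAE1 with 6 of 12 and ARHGAP8 and ARMC6 with 5 of 7 and 5 of 5. ANKRD11 is a chromatin regulator, FBXO31 a substrate receptor of a ubiquitin ligase, and SAE1 a subunit of the enzyme that activates SUMO. None of these 5 genes, which were picked for their unmet regions, had a region met by both RNase H lists. Over all protein-coding genes with a region 8.83% had one.

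Regions that carried DRIP peaks before CPT were met more often at 5 min. Of 5189 shared regions with a peak in both NT DRIP lists 78.2% (95% Wilson interval 77.1 to 79.3) met a 5 min RNase H peak. Of 3111 with a peak in 1 NT list 56.8% did, and of 4337 with none 44.8% (43.3 to 46.3). The same order held for peaks of both RNase H lists, at 8.19%, 3.86% and 1.64%. Width moved along, with medians of 1998, 1031 and 793 bp. Of the 4869 unmet regions, 2516 (51.7%) met an RNase H peak of 60 min and 218 (4.48%) one of NT, and 2276 (46.7%) met none in any of the 6 RNase H lists.

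Set beside the other treatments, the 5 min share of DRIP peaks met by their own RNase H list was between NT and 60 min in replicate 2 and above both in replicate 1. The means were 17.9% ± 21.4 (SD, n = 2) at 5 min, 5.62% ± 7.32 in NT and 25.3% ± 33.4 at 60 min. The difference between 5 min and NT was smaller than the spread between replicates (two-sided exact permutation test, p = 0.667), as was that between 5 and 60 min (exact p = 1). The GC difference between met and unmet peaks was largest at 5 min, with 3.78 ± 0.778 percentage points against 1.61 ± 1.04 in NT and 1.31 ± 0.645 at 60 min (n = 2 each), without overlap in either case (exact p = 0.33 for both, the smallest possible). The ratio of widths of met to unmet peaks was 1.73 ± 0.102 at 5 min, 1.85 ± 0.0822 in NT and 2.13 ± 0.223 at 60 min. A lack of overlap was not particular to GC. The ratio of widths against 60 min and the intron difference against NT and against 60 min, among others, also gave an exact p of 0.33. Of these 14 comparisons none had an adjusted p below 0.583.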

How the data were processed

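HCT116 DNA precipitated with S9.6, with or without RNase H digestion, was sequenced, and the deposited files are one peak list per library. Per the methods and the submitters' notes, cutadapt trimming, BWA alignment to hg19, SAMtools and peak calling over input with MACS2 were run by the authors. The paper then kept peaks found in both replicates of a condition. It compared normalized read counts of DRIP and RNase H libraries with limma to choose its R loop regions. The lists used here come before that step, so the shares met do not describe the regions the paper kept. Per the deposited lists, the fold enrichment, −log10 p, −log10 q and score of each peak are those of the caller. The lists hold no read counts, and library depths were not used here. Lists were joined by overlap of at least 1 bp, with gene parts from GENCODE 44 lifted to GRCh37, using scipy 1.17.1, pandas 2.3.3, numpy 2.4.6 and matplotlib 3.10.9 under Python 3.11.15. Libraries were compared by exact permutation tests and regions by counts, medians and Wilson intervals. Same-numbered samples were matched for overlaps within a replicate because the methods give them the same cut DNA. The exact permutation tests did not use this pairing, and only the sign-flip test of the peak number did. Overlap of the lists does not show the pairing, since it depends on their length. Named genes were the 8 unmet regions and the 8 regions met by both RNase H lists that ranked highest by their lowest percentile of fold enrichment, the 5 highest regions with RNase H peaks only, the 5 genes with most unmet regions, and the highest members of each gene list. The members and lists were chosen with earlier results of these data known. On simulated data, 951 of 951 regions were given the right class and 200 of 200 repeats were found. Input libraries served only in the authors' peak calling. A few loci and sequences are not reported here.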

Additional observations from a re-analysis of the deposited data

Results flagged for a closer look

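The following differences between DRIP peaks with and without an RNase H peak of their own replicate were picked by their signs. In both replicates the sign at 5 min of CPT was opposite to that in NT. They come from a wider set of measures, and the intron and exon differences did not meet this rule. Some measures can meet it with signs drawn at random, so meeting it carries little weight. The shares of the gene parts make up 1 total, so their differences are not independent. With 2 replicates an exact test cannot go below 0.33, and the NT value of replicate 1 rests on 135 met peaks. Promoters held 0.93 and 7.27 percentage points more of the met peaks at 5 min, and -13.8 and -1.24 in NT, a difference between the means of 11.6. Terminators held 3.91 and 2.09 points more at 5 min against -2.63 and -0.79 in NT, a difference of 4.71, which was not tested. The share outside protein-coding genes differed by -0.08 and -4.49 points at 5 min and by 11.6 and 5.69 in NT, a difference of -10.9. The 5 min value of replicate 1 was near no difference for the share outside genes, so its sign is uncertain. That of promoters, 0.93 points over 943 met peaks, was also small, and its sign is uncertain as well. The tests of the promoter and outside differences gave an exact p of 0.33, the smallest possible, and 0.583 after adjustment over 14 comparisons.

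The median GC content of all DRIP peaks minus that of all RNase H peaks was -2.95 and -2.51 percentage points at 5 min and 1.19 and 0.65 in NT. This measure was picked by the same rule on signs, and the difference of -3.65 was not tested.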

How the results depend on the processing

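In all, 80 values were computed for 10 results under 18 settings. Of these, 1 changed sign and 34 moved by more than the spread between replicates or, for counts, by more than 1.5 times. The other 45 did not, or for the tested differences kept their direction, so some of them are far from the reported value. No p threshold was checked for the tested differences. The share of regions met (61.5%) was 17.3% with RNase H lists of equal length, 20.4% with all lists of a kind equal, 36.4% with coverage of at least 50%, 4.87% with both RNase H lists required, and 2.79% to 33.0% within 1 replicate. The width ratio (2.17) was 2.90 and 2.58 with equal lists, 1.42 with coverage, 1.99 over summits, 1.57 for segments in both replicates, 3.37 with peaks up to 1000 bp apart merged, and 1.65 to 1.80 within 1 replicate. The promoter difference (9.84 points) turned to -4.69 with both RNase H lists required. It was 4.75 with all lists equal, 5.49 with coverage of at least 50%, 20.4 with any overlap, 4.99 with 2 kb windows, 3.31 within width bins, and 0.93 to 7.27 within 1 replicate. The GC difference (4.84 points) was 3.595 with all lists equal, 3.19 with coverage, 4.01 over summits, 3.71 for segments, 5.68 with merging, 3.44 with both lists and 3.23 to 4.33 within 1 replicate. The percentile difference (25.1) was 15.4 at a −log10 q of at least 3, 13.7 within width bins and 33.4 to 36.0 within 1 replicate. RNase H regions without a DRIP peak (229) numbered 89 at that q, 12 with RNase H lists equal, 15 with all lists equal, and 2398 to 28566 within 1 replicate, where single lists replace shared regions. The difference in peak number was 12149 at that q, 14171 with merging and 6190 to 30413 within 1 replicate. The causes were not tested, and what a missing peak means depends on depth, which was not used here. Within-replicate values of the median summit distance (151 to 194 bp) and of the difference in share met between 5 min and NT (2.34 to 22.2 points), and the repeat and shared-edge measures, were chosen after seeing the data. Of the gene lists, 7 of 9 were above the 77.5% over all protein-coding genes, but heat shock and structured noncoding RNA genes, at 77.8% each, were level with it, and with promoter windows 5 of 9 were above.

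With the replicate block, in which the samples are paired, the difference in peak number was 18301.5, and an exact sign-flip test over 2 pairs gave p = 0.5, the smallest it can give.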
